A study of Mus musculus with 4 samples.

Results

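The nuclear-encoded genes of the mitochondrial respiratory chain were followed here through the immune cells of the injured mouse brain. They were all genes of the deposited matrices whose symbols name a subunit of complex I (Nduf genes without the Ndufaf assembly factors), complex II (Sdha, Sdhb, Sdhc and Sdhd), complex III (Uqcr genes and Cyc1), complex IV (Cox4i, Cox5, Cox6, Cox7 and Cox8 genes) or complex V (Atp5 genes). This took 86 of 32285 genes, with 38 in complex I, 4 in complex II, 9 in complex III, 18 in complex IV and 17 in complex V. Ndufa4, counted with complex I by its symbol, is now regarded as a complex IV subunit. The study profiled CD45+ cells, leukocytes and microglia, by 10x single-cell RNA sequencing (scRNA-seq) in C57B6/J mice with cortical brain injury, sampling the thalamus and the hippocampus (HPC). Per the methods, cells came from the injured hemisphere, were released by Dounce homogenization, sorted as live CD45+ cells and pooled in equal numbers from 4 mice per region after tagging with oligos, and 4 tagged sets per region were deposited. All mice were injured, so no level here has an uninjured control, and the labels give neither age nor time after injury. Because the cells of a region also shared a 10x library, effects of region and of library cannot be told apart. Since the labels do not state that each set was a separate mouse, the p-values measure only the spread between sets.

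The respiratory chain sits in the inner mitochondrial membrane. Complexes I and II pass electrons from NADH and succinate to ubiquinone, complex III passes them on to cytochrome c, complex IV reduces oxygen, and complex V, the ATP synthase, uses the proton gradient built by complexes I, III and IV to make ATP. Most subunits are encoded in the nucleus and imported, while the mitochondrial genome encodes a core set for every complex except complex II, which is also an enzyme of the tricarboxylic acid cycle. Several complex IV subunits exist in a widely expressed form and a form restricted to a tissue such as muscle or testis. Microglia, the resident macrophages of the brain, move between a homeostatic state and the disease-associated (DAM) state, in which genes of phagocytosis and lipid handling are high.

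Promoters of these genes are known for binding sites of NRF1 and of ETS factors such as GABP, and short stretches are shown because the members below moved together in some comparisons and apart in others. Of the 86 genes, 68 had an entry in the RefSeq promoter table (GRCm38.p6), with 73 entries in all. The NRF1 letters (GCGCA, any base, then GCGC) were found on either strand in the 250 bases before the start in 14 of 73 member entries (19.2%), beside 3.74% of all 32851 promoter entries. The ETS letters CCGGAAG were found in 12 member entries (16.4%), beside 6.91% of all. The ERR letters CAAGGTCA stood in 3 member entries (4.11% beside 1.33%), the YY1 letters AAGATGG in 1 (1.37% beside 4.49%) and TATAAA in 8 (11% beside 12.4%). The YY1 value depended on the stretch searched. With bases just after the start included, these letters stood in 10 member entries (13.7% beside 6.34% of all). The other letters kept their direction there. None of these matches is a measured binding site. The stretches below hold the 120 bases before the start of the flavoprotein gene Sdha and the membrane anchor gene Sdhd of complex II, of Cox6a1, the widely expressed form of complex IV subunit 6A, of the complex III hinge protein gene Uqcrh, of Atp5g2, a gene for the ATP synthase c ring, and of Cox6b2, the testis form of subunit 6B. They read 5′ to 3′ on the strand of the gene, and capitals mark matches to the NRF1 letters or to the ETS letters, which appear as their reverse complement.
Sdha (chr13:74350241-74350360, minus strand): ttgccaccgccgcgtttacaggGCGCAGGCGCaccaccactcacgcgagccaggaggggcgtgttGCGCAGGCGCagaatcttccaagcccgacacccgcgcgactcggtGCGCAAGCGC
Sdhd (chr9:50603850-50603969, minus strand): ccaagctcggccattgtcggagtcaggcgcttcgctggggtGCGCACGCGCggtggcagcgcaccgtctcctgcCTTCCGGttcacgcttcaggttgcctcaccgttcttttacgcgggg
Cox6a1 (chr5:115348959-115349078, minus strand): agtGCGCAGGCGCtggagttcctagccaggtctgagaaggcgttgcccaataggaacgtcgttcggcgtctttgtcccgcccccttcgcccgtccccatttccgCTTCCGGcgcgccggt
Uqcrh (chr4:116075071-116075190, minus strand): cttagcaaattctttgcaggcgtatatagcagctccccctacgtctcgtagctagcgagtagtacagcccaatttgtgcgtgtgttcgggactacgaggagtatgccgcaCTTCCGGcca
Atp5g2 (chr15:102671048-102671167, minus strand): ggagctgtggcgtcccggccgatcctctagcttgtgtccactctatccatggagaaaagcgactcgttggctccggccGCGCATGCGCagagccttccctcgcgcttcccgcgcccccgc
Cox6b2 (chr7:4753095-4753214, minus strand): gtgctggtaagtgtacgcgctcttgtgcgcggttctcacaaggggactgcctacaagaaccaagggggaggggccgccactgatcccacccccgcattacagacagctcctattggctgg
Sdha held 3 NRF1 matches in this stretch, Sdhd and Cox6a1 a match to each of the NRF1 and ETS letters, Atp5g2 an NRF1 match, Uqcrh an ETS match and Cox6b2 neither. Members with and without these letters were found among both the genes that changed and those that did not, as the values of Sdha, Cox6a1 and Cox6b2 below show.

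The cells analysed had between 200 and 7500 genes with a UMI and a mitochondrial share of no more than 2%. This left 24939 of 29190 (11537 from the thalamus and 13402 from the HPC). Classes were gated on marker genes, none of them a member: 19179 cells were microglia, 3004 T or NK cells, 897 neutrophils and 403 macrophages or monocytes, and 1288 passed no gate. Among the microglia, 6318 were in the DAM gate (at least 300 UMIs of the DAM list per 10000), 4754 in the homeostatic gate (under 100 such UMIs and at least 100 of the homeostatic list), 662 in an interferon gate and 7445 between the states. Counts were summed per set, since cells are not replicates. The microglia sums held 8708488 to 18243913 UMIs per set, and the median cell 4680. The 2 regions shared 65 cell barcodes and sets of the same region 0. Markers of T or NK cells, neutrophils, red cells and non-immune brain cells each took at most 0.02% of microglial UMIs in every set. Those of macrophages or monocytes took 0.00432% to 0.00738% in thalamus sets and 0.00196% to 0.00656% in HPC sets.

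Levels below are CPM, the gene's UMIs scaled to the same total of gene UMIs in every sum. UMIs were read at the 3′ end, 1 per molecule, so levels were not divided by gene length. In microglia 79 of the 86 members averaged at least 20 CPM over the 8 sets. Cox4i1, the common form of complex IV subunit 4, was highest at 439.4 ± 63.6 CPM (SD, n = 8), followed by the c ring gene Atp5g2 at 238.5 ± 27.6 and by Cox8a, the common form of subunit 8, at 235.9 ± 28.7. Among the 79 members of at least 20 CPM, the median gene of complex V stood at 123.8 CPM and that of complex IV, over 12 genes, at 107.4 CPM. The medians were 75.5 for complex II, 67.0 for complex III and 65.4 for complex I. Among members over 20 CPM the lowest were Ndufv1, a subunit of the NADH-binding part of complex I, at 26.5 CPM and Ndufb6, a membrane-arm subunit, at 27.1 CPM.

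Of the tissue-restricted complex IV forms, only Cox6a2, the heart and skeletal muscle form of subunit 6A, passed 20 CPM in microglia (27.5 CPM). The testis form Cox6b2 stood at 2.45 CPM from 239 UMIs, the muscle form Cox7a1 at 0.547 CPM from 53 UMIs, and Cox4i2, known from lung and low oxygen, at 0.179 CPM from 17 UMIs. The muscle form Cox8b had 2 UMIs in all microglia, the testis form Cox7b2 and the hypoxia-induced Ndufa4l2 had 1 each, and the testis form Cox8c had none. After the filter on low counts, 78 members entered all 9 comparisons, Cox6a2 entered 7, Cox6b2 4 and Cox7a1 1, while Cox4i2, Cox7b2, Cox8b, Cox8c and Ndufa4l2 entered none.

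**Figure D1:**
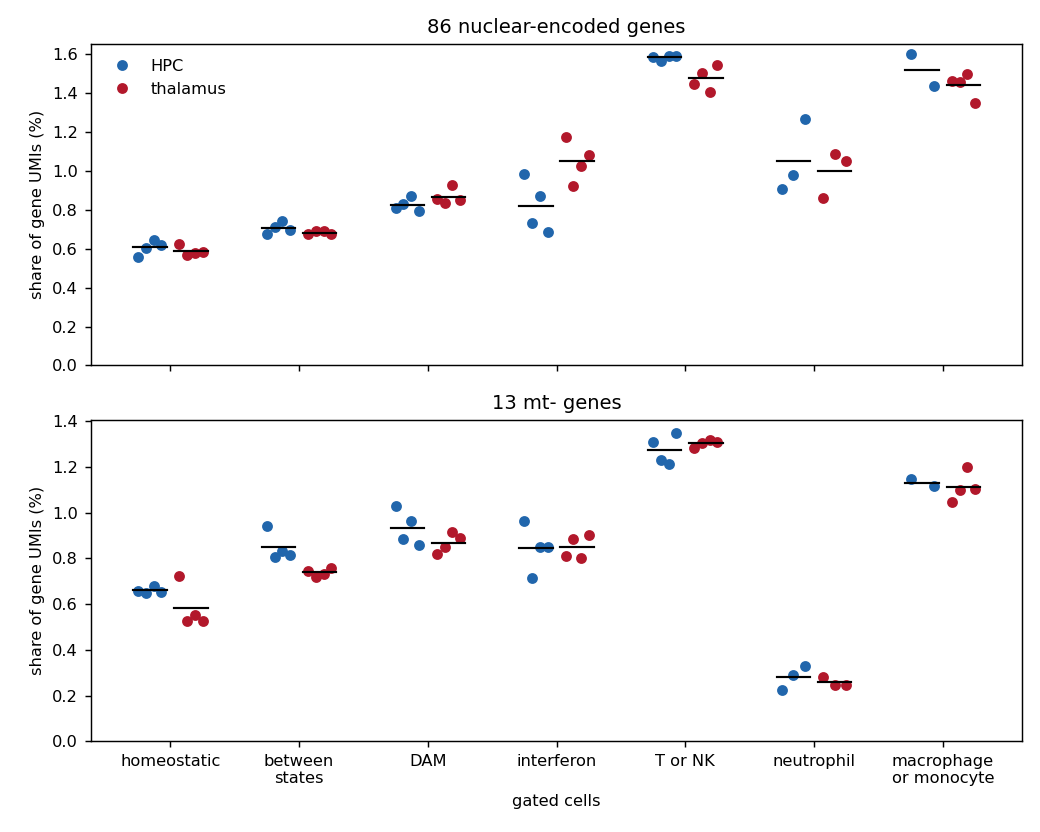
Share of gene UMIs (%) on the 86 nuclear-encoded genes (upper panel) and on the 13 mt- genes (lower panel) by gated cells, with a point per tagged set (blue HPC, red thalamus) and a black bar at the mean of each region. The nuclear-encoded share averaged 0.598% in homeostatic and 0.846% in DAM-gated microglia, 1.53% in T or NK cells and 1.47% in macrophages or monocytes, and neutrophils pair a share of 1.03% with an mt- share of 0.269%.

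The question of whether the respiratory chain differs between microglial states was asked within sets, by comparing the DAM-gated with the homeostatic cells of the same set. The members took 0.846% ± 0.041 of gene UMIs in DAM-gated cells (SD, n = 8) and 0.598% ± 0.030 in homeostatic cells. In the thalamus the DAM-gated sets ranged from 0.835% to 0.925% and in the HPC from 0.793% to 0.871%, while the homeostatic sets of both regions lay between 0.560% and 0.646%. The groups did not overlap in either region. The 13 mt- genes, which encode the mitochondrial subunits, took 0.901% in DAM-gated and 0.620% in homeostatic cells.

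Of 79 members tested, 73 were higher in DAM-gated cells and 0 were lower (edgeR's quasi-likelihood test with the set as a block, Benjamini-Hochberg adjusted p under 0.05 over 11794 genes). This was 92.4% of members, beside 21.1% of all genes tested that were higher and 21.4% that were lower. The median member changed by 0.70 on the log2 scale and the median gene by -0.03. In CPM, 49 of the 73 called were higher in all 8 pairs, and 36 had groups that did not overlap. The same counts were not made over all genes. At an unadjusted p under 0.05, 74 members were higher and 0 lower, beside 49.0% of all genes in either direction. DESeq2 called 70 higher and 0 lower, beside 36.3% of all genes in either direction. With library size alone in place of TMM scaling the median gene moved to -0.24, the median member to 0.50, and 61 members stayed higher while Ndufa9, a complex I subunit, was lower at -0.30. Other parts of the cell's transcript pool moved as well: 85 of 95 cytosolic ribosomal genes tested were higher, with a median of 1.16, and 3 were lower. Macrophage or monocyte markers took 0.00473% to 0.0131% of UMIs in DAM-gated sets and 0.00133% to 0.00436% in homeostatic sets, without overlap. How far these changes bear on the members was not tested.

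Uqcrh had the largest rise of the widely expressed members. It stood at 208.1, 227.4, 239.3 and 227.4 CPM in the DAM-gated cells of thalamus sets 1 to 4 and at 244.8, 265.2, 223.4 and 255.7 CPM in those of HPC sets 1 to 4. In homeostatic cells it stood at 101.2, 102.5, 111.8 and 116.5 CPM in the thalamus and at 79.2, 124.5, 136.5 and 135.9 CPM in the HPC. Every DAM-gated set was above every homeostatic set. The fitted log2 difference was 1.24 ± 0.07 (SE, edgeR adjusted p = 3.11e-13).

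Cox4i1 showed the same separation at the highest level of the chain. The DAM-gated cells held 577.4, 580.1, 640.0 and 597.1 CPM in the thalamus sets and 514.8, 546.5, 592.5 and 546.9 CPM in the HPC sets. The homeostatic cells held 324.4, 289.1, 282.1 and 304.9 CPM in the thalamus and 261.5, 290.2, 314.2 and 313.4 CPM in the HPC. Again the groups did not overlap, and the log2 difference was 1.15 ± 0.06 (edgeR adjusted p = 4.37e-14).

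In complex IV all 12 tested genes were higher, with a median log2 difference of 0.91, among them Cox8a (1.08 ± 0.06), the subunit genes Cox5b (0.99 ± 0.08) and Cox6c (0.98 ± 0.07), Cox7a2l, known from respiratory supercomplexes (0.92), Cox6b1 (0.90), Cox6a1 (0.82 ± 0.08), Cox7a2 (0.78) and Cox7b (0.75). Complex V also rose in all 17 of 17 genes, with a median of 0.71. Its largest values were those of Atp5mpl, a small membrane proteolipid (1.06 ± 0.09), Atp5g2 of the c ring (1.02 ± 0.06) and Atp5e, the epsilon subunit (1.00 ± 0.06).

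In complex I 34 of 37 tested genes were higher, with a median of 0.63. Ndufa1, a small membrane-arm subunit, led them at 1.21 ± 0.10 (edgeR adjusted p = 5.21e-10), and Ndufa4 stood at 0.60. Ndufa9 (-0.09 ± 0.09), the iron-sulfur subunit Ndufs1 (-0.016 ± 0.10) and the accessory subunit Ndufs4 (0.05 ± 0.08) did not pass the test. In complex III 8 of 9 were higher, with a median of 0.58, the haem subunit Cyc1 among them at 0.36 ± 0.09 (adjusted p = 0.00341), while the core subunit Uqcrc2 stood at 0.08 without a call.

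Complex II had the smallest median difference of the 5 complexes, 0.26, and split between its subunits. The iron-sulfur subunit Sdhb ranged from 93.0 to 130.8 CPM in DAM-gated sets and from 74.1 to 87.9 CPM in homeostatic sets, with no overlap, and its log2 difference was 0.70 ± 0.08 (edgeR adjusted p = 3.36e-08). Sdha, which carries the flavin and binds succinate, stood at 89.5, 92.7, 95.3 and 92.7 CPM in the DAM-gated cells of the thalamus and at 103.5, 104.6, 90.0 and 115.0 CPM in those of the HPC. Its homeostatic levels were 96.7, 100.5, 117.6 and 106.8 CPM in the thalamus and 107.0, 109.8, 111.3 and 114.0 CPM in the HPC. The groups overlapped, and only HPC set 4 had more in its DAM-gated cells.

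The fitted difference of Sdha was 0.07 ± 0.07 (edgeR adjusted p = 0.448). The membrane anchors lay between them, Sdhd at 0.30 ± 0.10 (adjusted p = 0.0187, a call held under 12 of 17 alternative settings) and Sdhc at 0.21 ± 0.10 (adjusted p = 0.0928). Complex II as a sum took 0.0293% of UMIs in DAM-gated and 0.0267% in homeostatic cells, whereas complex IV took 0.223% and 0.130%. The mt- genes, which hold no complex II subunit, were higher in 12 of 13 with a median of 0.70.

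**Figure D2:**
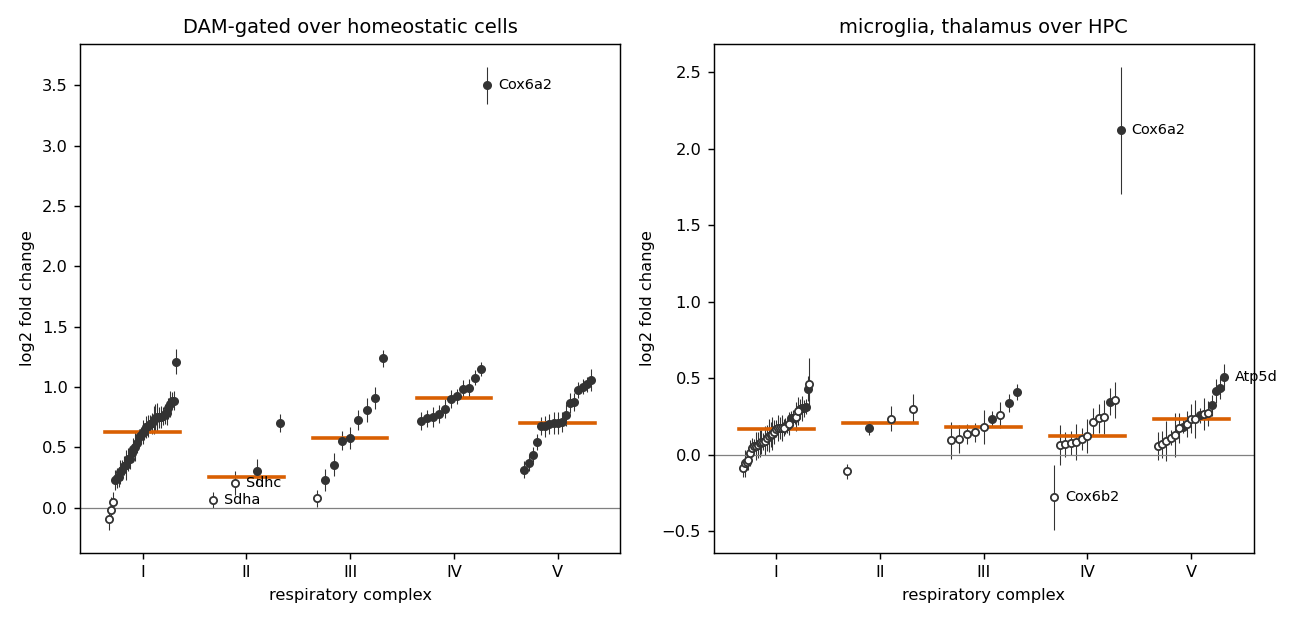
Log2 fold change of each tested member by respiratory complex, DAM-gated over homeostatic cells (left) and thalamus over HPC in all microglia (right), with SE bars, filled points for adjusted p under 0.05 and an orange line at each complex's median. On the left 73 of 79 points are filled and above 0, with Sdha and Sdhc near 0 and Cox6a2 at 3.50, and on the right 22 of 80 are filled, Cox6a2 again highest at 2.12.

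The member share rose from bin to bin of the DAM level. When microglia of each set were split by their DAM-list UMIs per 10000, the mean member share was 0.548% ± 0.031 (SD, 6 sets) below 50, then 0.608%, 0.686%, 0.731%, 0.784%, 0.843% and 0.886% in the bins from 50, 100, 200, 300, 500 and 800, and 1.04% ± 0.087 (7 sets) from 1200 up. Complex IV rose from 0.118% to 0.293% and complex V from 0.154% to 0.290%, while complex II went from 0.0273% to 0.0302%. In each bin the ranges of the 2 regions overlapped, for example 0.745% to 0.861% in the thalamus and 0.746% to 0.811% in the HPC from 300 to 500. Because the bins of a set come from the same tagged set, they are given as a description without a test.

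The mt- genes did not rise over the whole range. Their share went from 0.531% through 0.632%, 0.768%, 0.868%, 0.881%, 0.910% and 0.912% to 0.873% in the highest bin, within the 2% limit that the cell filter sets on it. Over the same bins the cytosolic ribosomal share went from 4.06% to 11.3% and the share of Malat1, a nuclear RNA, fell from 2.45% to 1.34%.

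**Figure D3:**
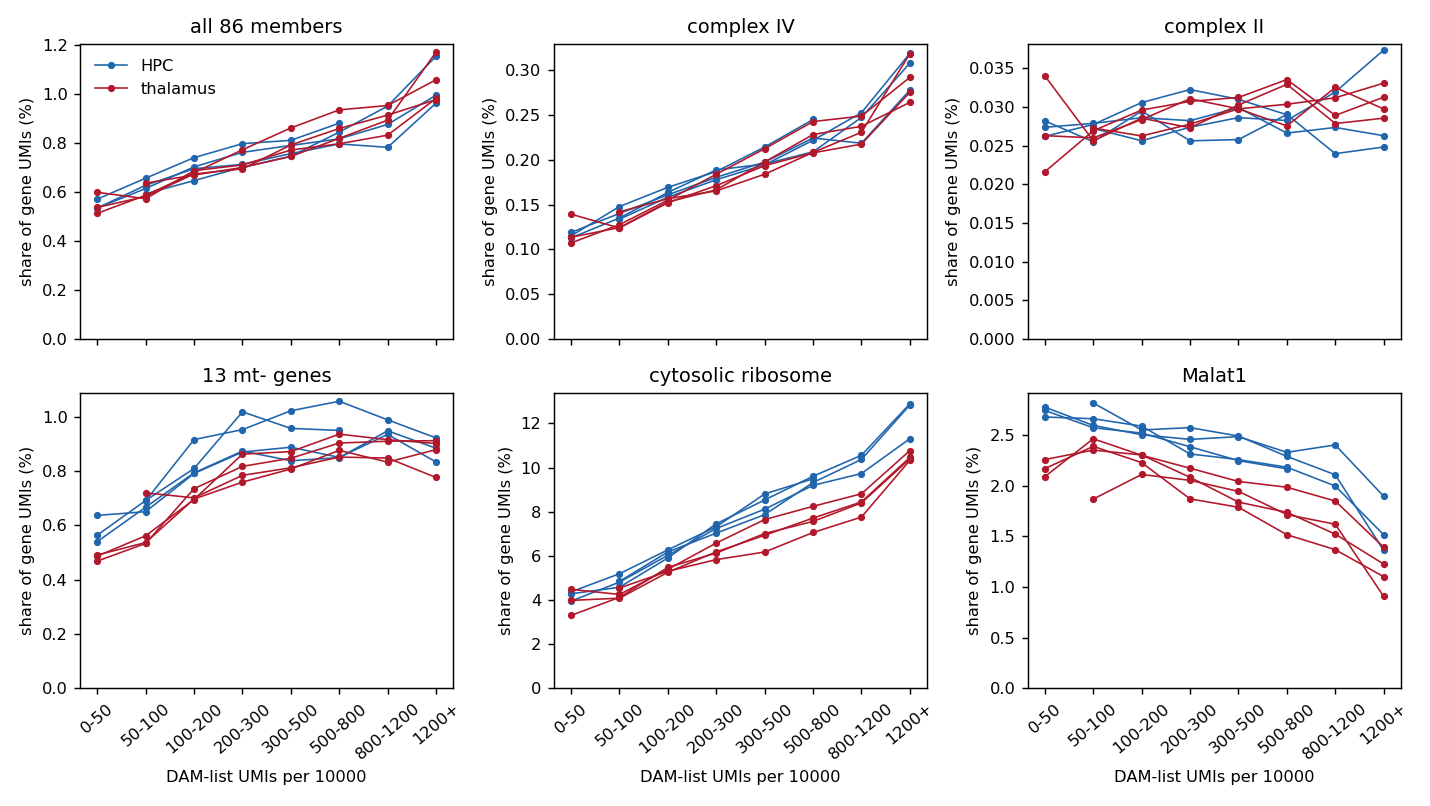
Share of gene UMIs (%) in microglia by bins of DAM-list UMIs per 10000, with a line per tagged set (blue HPC, red thalamus), for all 86 members, complex IV, complex II, the 13 mt- genes, the cytosolic ribosome and Malat1. The member mean climbs from 0.548% to 1.04%, and complex II goes from 0.0273% in the lowest bin to 0.0302% in the highest. The mt- genes reach 0.912% in the bin from 800 and stand at 0.873% in the highest.

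Cox6a2 had the largest fitted difference between the states of all members tested. The gene lies on chromosome 7 (128205435 to 128206387, minus strand, GRCm38), away from Cox6a1 on chromosome 5 (115345642 to 115348981, minus strand), so the 2 forms are counted from separate loci. In DAM-gated cells it stood at 70.7, 50.4, 75.6 and 73.0 CPM in thalamus sets 1 to 4 and at 13.7, 20.2, 34.1 and 58.4 CPM in HPC sets 1 to 4. In homeostatic cells it stood at 8.93, 3.29, 6.21 and 11.8 CPM in the thalamus, and at 2.87, 2.85 and 3.90 CPM in HPC sets 2 to 4 with 0 UMIs in HPC set 1, where a count of 0 allows up to 11.9 CPM. DAM-gated levels were higher in all 8 sets and overlapped with no homeostatic set. The log2 difference was 3.50 ± 0.15 (edgeR adjusted p = 2.47e-15), beside 0.82 ± 0.08 for Cox6a1.

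As a share of the UMIs of both subunit 6A genes, Cox6a2 made up 37.1%, 33.3%, 38.9% and 39.2% in the DAM-gated cells of the thalamus and 11.4%, 15.98%, 26.2% and 36.9% in those of the HPC. In homeostatic cells it made up 10.5%, 4.46%, 7.85% and 15.0% in the thalamus sets, against 0%, 3.96%, 3.74% and 4.95% in the HPC sets. Only HPC set 4 reached the thalamic range among DAM-gated cells. Cox6a1 itself lay at 100.7 to 119.9 CPM in the thalamic and at 96.2 to 107.0 CPM in the HPC DAM-gated cells, with overlap.

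In T or NK cells and neutrophils Cox6a2 was low. T or NK cells held 4.89, 3.92, 0 and 6.45 CPM in the thalamus and 3.09, 2.23, 0 and 0 CPM in the HPC, with the 3 sets at 0 allowing up to 5.32 to 20.4 CPM. Neutrophils held 11.1, 4.16 and 11.02 CPM in thalamus sets 1, 2 and 4, 1.00 CPM in HPC set 1 and 0 in HPC sets 2 and 4 (up to 33.3 and 41.5 CPM allowed). Against microglia the log2 difference was -3.12 ± 0.24 for T or NK cells (edgeR adjusted p = 5.75e-10) and -2.81 ± 0.47 for neutrophils (adjusted p = 1.16e-07). Macrophages or monocytes of thalamus set 3 held 171.3 CPM from 23 UMIs, all in 2 of its 21 cells, while the other 5 sets held 0 to 38.2 CPM. The difference there was -0.66 ± 0.44 (adjusted p = 0.212), and without thalamus set 3 it was -1.85 ± 0.39 (adjusted p = 0.000193). Without thalamus set 1 it was 0.00023 ± 0.87, and with clusters in place of gates -4.09 ± 0.54.

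**Figure D4:**
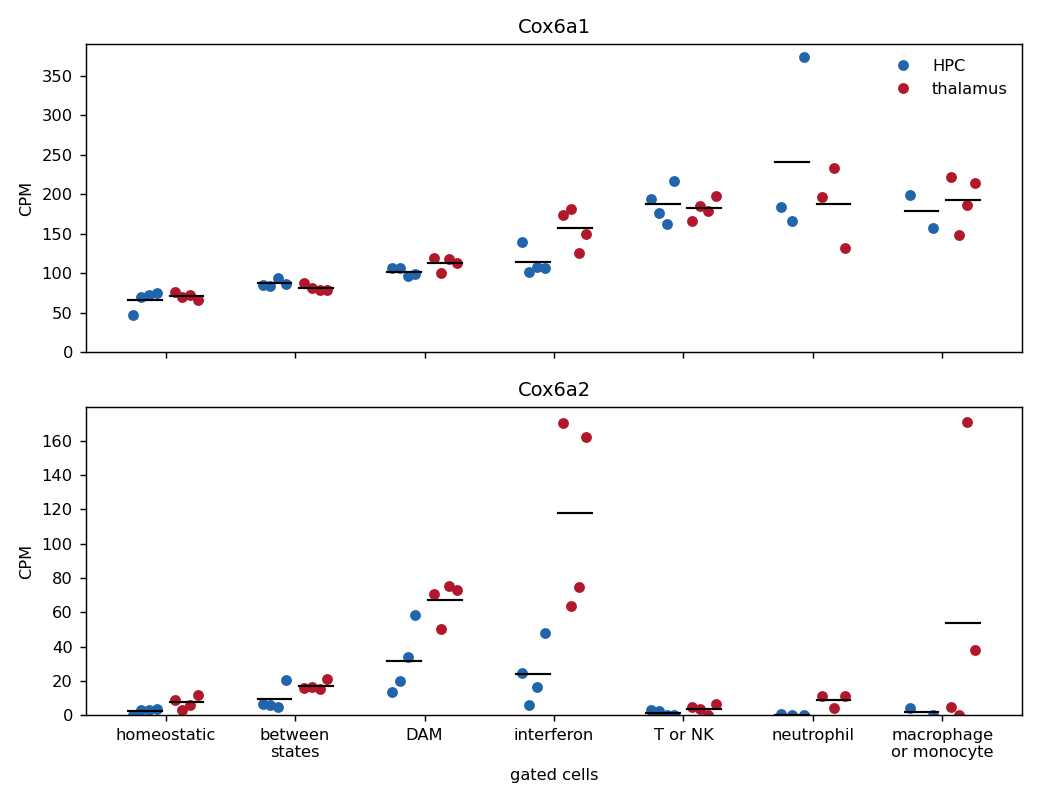
CPM of Cox6a1 (upper panel) and Cox6a2 (lower panel) by gated cells, with a point per tagged set (blue HPC, red thalamus) and a black bar at each region's mean. Cox6a2 lies between 0 and 11.8 CPM in homeostatic cells and between 13.7 and 75.6 CPM in DAM-gated cells, while the macrophage or monocyte point at 171.3 CPM is thalamus set 3.

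The comparison of regions asked whether microglia of the thalamus and of the HPC, both away from the injured cortex, differ in these genes. The members took 0.826%, 0.741%, 0.744% and 0.757% of microglial UMIs in thalamus sets 1 to 4 (mean 0.767% ± 0.040) and 0.758%, 0.678%, 0.694% and 0.684% in HPC sets 1 to 4 (mean 0.703% ± 0.037). The ranges overlapped, since HPC set 1 lay above 3 of the 4 thalamus sets. The mix of states differed between sets. DAM-gated cells were 1393 of 2312, 753 of 1788, 508 of 1888 and 942 of 2425 microglia in thalamus sets 1 to 4. In HPC sets 1 to 4 they were 2014 of 3541, 325 of 3181, 66 of 1962 and 317 of 2082. How far this mix bears on the values of all microglia, Cox6a2 included, was not tested. Comparisons within each state follow below. The mt- genes took 0.767% ± 0.027 in the thalamus and 0.810% ± 0.118 in the HPC, where set 1 reached 0.987%. The direction of this difference turned, to 0.767% and 0.751%, without HPC set 1, and to 0.950% and 0.891% with a mitochondrial limit of 5%.

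Of 80 members tested in microglia, 22 were higher in the thalamus and 0 were lower, which was 27.5% of members beside 8.81% of all 13000 genes higher and 4.68% lower (edgeR, adjusted p under 0.05). The median member differed by 0.17 and the median gene by -0.01. For 21 of these 22 called members every thalamus set was above every HPC set, a count not made over all genes. At an unadjusted p under 0.05, 41 members were higher and 1 lower, beside 31.15% of all genes in either direction. DESeq2 called 24 higher and 0 lower. With the set number as a block 46 were higher. With a mitochondrial limit of 5% the count was 39, without HPC set 1 it was 44, and without HPC set 2 or 4 it was 12 or 14. The share of all genes called, in either direction, moved as well. It was 15.21% with DESeq2, 28.97% with the block, 19.43% at the 5% limit and 23.29% without HPC set 1. Without HPC set 2 or 4 it was 5.83% or 7.29%. Calls fell on 10 genes of complex I, 1 of complex II, 3 of complex III, 2 of complex IV and 6 of complex V.

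Besides Cox6a2 the differences were small and close between sets. Atp5d, the delta subunit of the ATP synthase, stood at 161.8, 133.7, 137.9 and 137.3 CPM in the thalamus and at 110.1, 98.0, 108.6 and 103.2 CPM in the HPC, with a log2 difference of 0.51 ± 0.09 (edgeR adjusted p = 0.00603). The c ring gene Atp5g3 stood at 80.7, 75.2, 76.1 and 76.0 CPM in the thalamus and at 63.7, 58.0, 60.7 and 55.7 CPM in the HPC (0.44 ± 0.07, adjusted p = 0.00496). Cyc1 stood at 53.9, 51.3, 53.2 and 49.97 CPM in the thalamus and at 38.4, 41.5, 42.5 and 42.4 CPM in the HPC (0.41 ± 0.05, adjusted p = 0.00175). In all 3 genes the lowest thalamus set was above the highest HPC set, and the calls of Atp5g3 and Cyc1 held under all 18 alternative settings.

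Cox6a2 in all microglia stood at 62.9, 30.8, 33.1 and 49.9 CPM in the thalamus and at 10.96, 6.19, 4.81 and 21.4 CPM in the HPC. The groups did not overlap, and the log2 difference was 2.12 ± 0.41 (edgeR adjusted p = 0.011), lost only with stricter gates. Further members called were Ndufb6 (0.43 ± 0.08), Atp5o of the stalk of the ATP synthase (0.42 ± 0.08), Cox5a of complex IV (0.35 ± 0.09), the Rieske protein gene Uqcrfs1 (0.34 ± 0.06), the gamma subunit Atp5c1 (0.32 ± 0.07) and the iron-sulfur subunit Ndufs8 (0.31 ± 0.05). Sdhc was called at 0.17 ± 0.04 (adjusted p = 0.0314), a call held under only 6 of 18 alternatives. Cox4i1 (0.36, adjusted p = 0.0702), Cox6a1 (0.25, adjusted p = 0.167), Sdhb (0.30, adjusted p = 0.0615), Sdhd (0.24), Sdha (-0.11) and Cox6b2 (-0.28) did not pass.

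Cells poor in Malat1 (under 40 UMIs per 10000) were unequally spread and moved with these values. They made up 15.96%, 5.59%, 6.25% and 7.42% of microglia in the thalamus sets and 2.29%, 0.566%, 0.255% and 0.336% in the HPC sets. The members took 1.70% to 1.95% of their UMIs in sets with at least 20 such cells, against 0.675% to 0.745% in the remaining cells of all sets. Without them, a setting chosen after seeing the data, the member share was 0.716% in the thalamus and 0.698% in the HPC. The difference thus went from 0.0638 to 0.0183 percentage points, and 14 members were called higher. Of all genes 9.48% were then called in either direction.

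Within the homeostatic gate none of the 78 members tested was higher in the thalamus and 2 were lower (2.56% of members, beside 1.3% of all genes lower and 2.48% higher). Cox6a2, whose homeostatic levels are given above, did not pass the low-count filter and was not among the 78. At an unadjusted p under 0.05, 0 members were higher and 16 lower, beside 15.1% of all genes in either direction. DESeq2 called 0 members in either direction. Cox6b1, the common form of subunit 6B, stood at 84.8, 80.2, 77.5 and 78.5 CPM in the thalamus and at 91.1, 99.1, 95.3 and 107.7 CPM in the HPC (-0.33 ± 0.08, edgeR adjusted p = 0.0211). Cox7b stood at 58.0, 55.9, 54.7 and 61.6 CPM in the thalamus and at 71.3, 72.1, 70.1 and 78.3 CPM in the HPC (-0.34 ± 0.09, adjusted p = 0.0334). Neither gene's groups overlapped, but the calls held under only 7 and 9 of 17 alternatives, and 0 members were called lower without HPC set 2, HPC set 4 or thalamus sets 2, 3 or 4, against 6 without thalamus set 1. A block for the set number gave 6 lower and 1 higher. Of all genes, in either direction, DESeq2 called 1.71% and the block 5.54%. Without HPC set 2, HPC set 4 or thalamus sets 2, 3 or 4 the share was 2.42% to 3.09%. Without thalamus set 1 it was 3.96%. The median member differed by -0.09.

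Other genes moved with region in the homeostatic cells. Of the 13 mt- genes, 7 were lower in the thalamus and 0 higher, with a median of -0.32, and 31 of 92 cytosolic ribosomal genes were lower and 0 higher. Of the dissociation response list, immediate early genes that respond to tissue handling, 13 of 18 were higher and 0 lower. That list took 0.705% to 0.934% of UMIs in thalamus sets and 0.543% to 0.636% in HPC sets, without overlap, and its part in the members' values was not tested.

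Within the DAM gate 20 of 79 members tested were higher in the thalamus and 0 were lower (25.3%, beside 7.59% of all genes higher and 3.99% lower), with a median of 0.17. For 13 of these 20 called members the groups did not overlap, a count not made over all genes. Cox6a2 led at 1.503 ± 0.33 (edgeR adjusted p = 0.00907), a call lost with DESeq2, with stricter gates, with equal cell numbers and without HPC set 1. Ndufb6 followed at 0.51, Cyc1 at 0.43 ± 0.09, Atp5d at 0.43 ± 0.09, Ndufa1 at 0.42, Atp5g3 at 0.42 ± 0.08, Atp5o at 0.41, Ndufs8 at 0.40, the c ring gene Atp5g1 at 0.38 and Sdhc at 0.36.

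This count depended on the setting. DESeq2 called 9 higher and 0 lower. At an unadjusted p under 0.05, 36 members were higher and 1 lower, beside 25.5% of all genes in either direction. With the set number as a block 21 were higher. The count fell to 4 without HPC set 1, and to 11 without HPC set 2, HPC set 4 or thalamus set 1. It was 9 and 12 without thalamus sets 3 and 4. It fell to 3 without Malat1-poor cells (Atp5c1, Atp5g3 and Cox6a2, with Ndufa6 lower) and to 0 with 66 cells drawn from every set. Of all genes, in either direction, DESeq2 called 6.89% and the block 14.93%. The share was 3.96% without HPC set 1 and 6.35% to 8.71% without the other sets named. It was 7.88% without Malat1-poor cells and 2.45% with equal cells. The median cell inside the gate had 695 to 739 DAM-list UMIs per 10000 in thalamus sets, against 456 to 488 in HPC sets, and Malat1-poor cells made up 11.3% to 20.1% and 1.58% to 4.92% of them. The part of either in the difference was not tested.

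Whether the gap between the states itself differed between regions was tested as an interaction. None of 79 members passed, beside 0.653% of all genes higher in the thalamus and 0.526% lower. At an unadjusted p under 0.05, 21 members were higher and 0 lower, beside 11.3% of all genes in either direction. DESeq2 called 0 members, and the median member was 0.22. Cox6a2 stood at -0.20 ± 0.34 (edgeR adjusted p = 0.90), Sdhb at 0.33 (adjusted p = 0.302) and Sdhc at 0.43 (adjusted p = 0.324).

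The region comparison was also made in T or NK cells, which came from the same libraries. Of 78 members tested, 0 were called in either direction, beside 0.218% of all genes higher and 0.0327% lower. At an unadjusted p under 0.05, 1 was higher and 17 lower in the thalamus, beside 6.36% of all genes in either direction. DESeq2 called 1 lower, the fit with the set number as a block called 5 lower, and the median member differed by -0.09. Of all genes, in either direction, DESeq2 called 0.316% and the fit with the block 1.84%. The members took 1.40% to 1.54% of T or NK UMIs in the thalamus and 1.57% to 1.59% in the HPC, so every thalamus set lay below every HPC set.

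Against the microglia of the same sets, T or NK cells carried the chain at a higher level. The members took 1.53% ± 0.07 of their UMIs (SD, n = 8, 1.40% to 1.59%), and of 81 tested, 72 were higher and 4 lower, beside 36% of all 14220 genes higher and 40.7% lower (edgeR, adjusted p under 0.05). The median member differed by 0.91 and the median gene by -0.08. All 9 genes of complex III, all 17 of complex V, 34 of 37 of complex I and 11 of 14 of complex IV were higher.

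Cox5a, a subunit on the matrix side of complex IV, showed the largest rise. It stood at 379.3, 416.5, 364.8 and 503.8 CPM in the T or NK cells of the thalamus and at 379.3, 424.1, 237.5 and 409.8 CPM in those of the HPC, against 93.1 to 138.3 CPM in microglia. The groups did not overlap, and the difference was 1.74 ± 0.10. Further large differences were those of Atp5g3 (1.59), Cox6c (1.58), Atp5h of the ATP synthase stalk (1.57), Ndufa1 (1.56), Ndufb7 (1.54), Ndufa13 of complex I (1.51), Atp5e (1.43), Ndufv3 (1.42) and Ndufa11 (1.42), while Cox4i1 differed by 0.58.

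The 4 lower genes were Cox6a2, Cox6b2 (-1.85 ± 0.45, 0.504 against 2.45 CPM), Sdhc (-0.30 ± 0.10, adjusted p = 0.0163) and the complex I gene Ndufc2 (-0.27 ± 0.07), and the last 2 lost their calls with library size alone. In complex II Sdhb was higher at 0.23 (edgeR adjusted p = 0.0088) and Sdha stood at 0.08. Cox7a1, entered in this comparison alone, stood at 1.05 ± 0.47 (adjusted p = 0.0529). Of the 13 mt- genes, 6 were higher and 0 lower, against the 36% and 40.7% of all genes given above, mt-Co1 of complex IV among them at 0.88 and mt-Atp6 of complex V at 0.86.

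Macrophages or monocytes of 6 sets resembled T or NK cells in direction. The members took 1.47% ± 0.08 of their UMIs (SD, n = 6, 1.35% to 1.60%), and of 80 tested, 74 were higher than in microglia and 0 lower, beside 24% of all 13013 genes higher and 30% lower. The median member differed by 1.17 and the median gene by -0.19. DESeq2 called 72 higher and 0 lower, beside 47.6% of all genes in either direction. At an unadjusted p under 0.05, 75 members were higher and 0 lower, beside 58.9% of all genes in either direction. Atp5d stood at 375.0, 421.3, 387.2 and 358.7 CPM in the thalamus sets and at 390.1 and 328.3 CPM in HPC sets 1 and 2, against a microglial mean of 129.8 CPM in the same sets, and differed by 1.72 ± 0.12 (edgeR adjusted p = 4.1e-14). Atp5l, a subunit of the membrane part of the ATP synthase, differed by 1.74 ± 0.11, Atp5h by 1.65, Cox5a by 1.62, Cox5b by 1.61, Ndufa6 by 1.56, Atp5o by 1.55 and Cox4i1 by 1.11.

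The testis form Cox6b2 was the member with the largest fitted difference here. It stood at 5.03, 13.3, 7.45 and 11.8 CPM in the thalamus sets and at 14.5 and 9.25 CPM in HPC sets 1 and 2, against 1.84 to 3.51 CPM in microglia. The groups did not overlap, and the difference was 2.22 ± 0.44 (edgeR adjusted p = 6.99e-05), at levels under 20 CPM throughout. All 403 cells of this gate held only 32 UMIs of Cox6b2, in 29 cells, so each set's level rests on few molecules. In complex II Sdhd (0.89) and Sdhb (0.81) were higher, while Sdhc (0.15) and Sdha (-0.13) did not pass. Of the 13 mt- genes, 5 were higher and 0 lower, against the 24% and 30% of all genes, mt-Co1 at 1.10 among them.

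Neutrophils of 6 sets split the chain. Of 80 members tested, 28 were higher than in microglia and 19 lower (35% and 23.8%, beside 21.8% of all 12916 genes higher and 42.2% lower), with a median member of 0.11 and a median gene of -0.55. Atp5l stood at 300.9, 487.1 and 485.1 CPM in thalamus sets 1, 2 and 4 and at 471.1, 454.6 and 554.0 CPM in HPC sets 1, 2 and 4, against 113.2 to 141.2 CPM in microglia, and differed by 1.85 ± 0.16. Cox8a stood at 508.9, 670.3 and 727.6 CPM in the thalamus and at 629.1, 654.1 and 817.1 CPM in the HPC against a microglial mean of 242.3 CPM, and differed by 1.43 ± 0.15 (edgeR adjusted p = 4.29e-15). Both genes were higher in every set without overlap.

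The complex I gene Ndufc2 went the other way. It stood at 44.6, 37.5 and 33.1 CPM in the thalamus and at 23.0, 33.3 and 83.1 CPM in the HPC, against 124.8 to 137.4 CPM in microglia, and differed by -1.88 ± 0.24 (edgeR adjusted p = 2.95e-11). HPC set 4 was highest but still below every microglial set. Complex I had 9 genes higher, led by the accessory subunits Ndufa3 (1.39) and Ndufa7 (1.35), and 9 lower, among them Ndufa9 (-1.73), the acyl carrier protein gene Ndufab1 (-1.13) and the core subunit Ndufs3 (-1.10).

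Complex III was also divided, with the small subunit genes Uqcr10 (1.09), Uqcrq (1.04) and Uqcr11 (0.58) higher and Cyc1 (-0.61), Uqcrb (-0.90) and Uqcrc2 (-0.76) lower. Complex IV had 8 genes higher, among them Cox7a2 (1.42) and Cox5b (1.17), and 3 lower (Cox6a2, Cox7a2l at -0.42 and Cox7c at -0.49). In complex V 8 were higher, Atp5md (1.45) and Atp5e (1.33) among them, and 3 lower, the catalytic-head gene Atp5a1 (-0.48) and the c ring genes Atp5g1 (-0.59) and Atp5g2 (-1.24). In complex II only Sdhc was called, lower at -1.03. The median neutrophil held 1930 UMIs against 4680 for microglia. Stricter gates left 13 higher members, leaving out HPC set 1 gave 10 lower members and leaving out thalamus set 1 gave 11. In either direction those fits called 52.5%, 50.3% and 57.3% of all genes.

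The mitochondrial genome was lower in neutrophils. Of 13 mt- genes, 12 were lower and 0 higher, against 42.2% and 21.8% of all genes, with a median of -1.65, from -2.50 for mt-Nd1 of complex I to mt-Co1 at -1.25. The mt- genes took 0.223% to 0.328% of neutrophil UMIs, and for each mt- UMI there were 3.84 member UMIs (3.08 to 4.43 over the sets). In microglia there were 0.938 (0.768 to 1.04), so the ranges did not overlap.

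**Figure D5:**
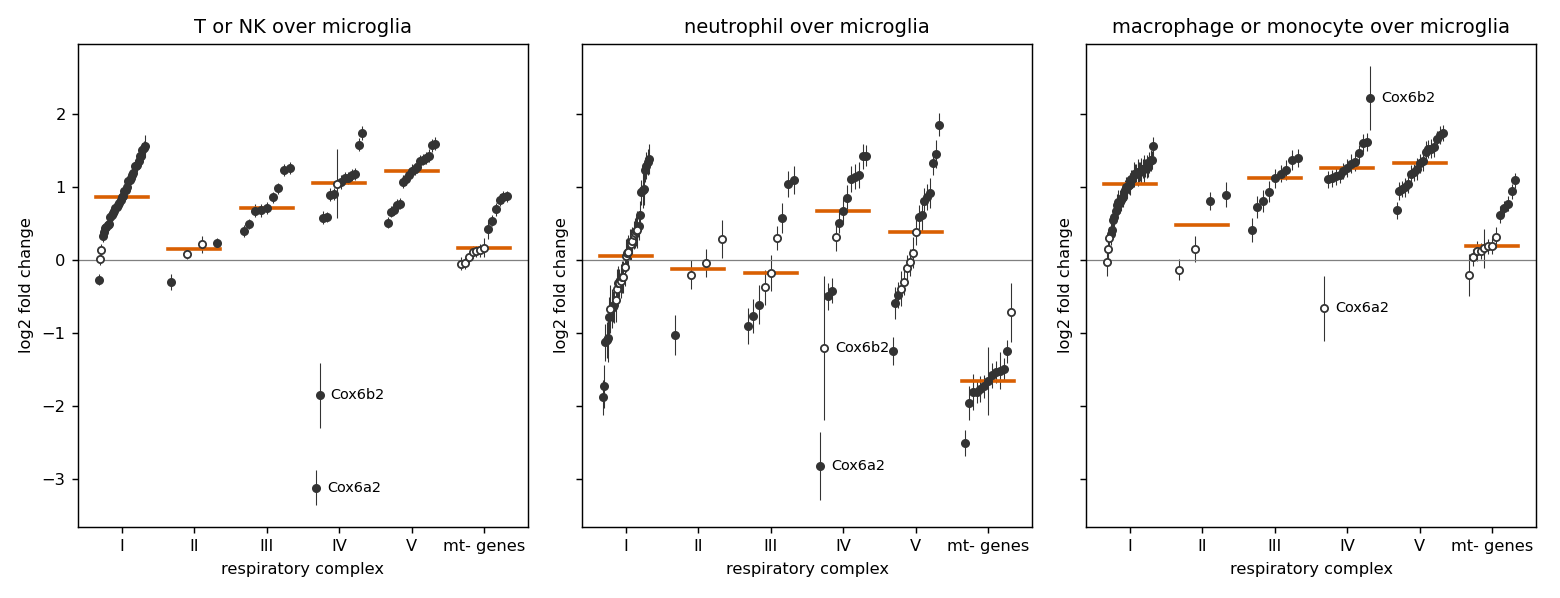
Log2 fold change of each tested member by complex, and of the mt- genes, in T or NK cells (left), neutrophils (middle) and macrophages or monocytes (right) over the microglia of the same sets, with SE bars, filled points for adjusted p under 0.05 and an orange line at each median. Medians are above 0 for every complex on the left and on the right, while neutrophils spread to both sides of 0 with the mt- genes at a median of -1.65.

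Other genes that serve the chain were read from lists, to be held against the 21.1% of all genes higher and 21.4% lower between the states. Between DAM-gated and homeostatic cells, 13 of 44 assembly factors tested were higher and 3 lower (median 0.11), led by Ndufaf8 (0.77), Pet100 (0.69) and Surf1 (0.68), which act in complex I or complex IV assembly. Of the mitochondrial ribosome, 39 of 78 were higher and 0 lower (median 0.28), and of the import machinery 15 of 23 (median 0.43), with the outer-membrane genes Tomm6 (1.06) and Tomm7 (0.99). The tricarboxylic acid cycle and pyruvate entry list was divided, with 6 higher, among them malate dehydrogenase Mdh2 (0.52), and 2 lower of 21, isocitrate dehydrogenase Idh2 (-0.82) and Dlst (-0.29).

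Electron carriers and feeders had 5 higher and 1 lower of 10, with the ubiquinone synthesis gene Coq7 (1.02), cytochrome c Cycs (0.46) and the sulfide oxidase Sqor (-0.53). Antioxidant and uncoupling genes had 12 higher and 0 lower of 15 (median 0.54), among them the outer-membrane protein gene Tspo (1.51) and the peroxiredoxin Prdx5 (0.88). Of 14 regulators of mitochondrial biogenesis, 1 was higher, the coactivator Ppargc1b (1.18, at 19.79 CPM), and 2 were lower, the ETS partner Gabpb1 (-0.43) and Nrf1 (-0.22). Between regions in all microglia the same lists gave 2 higher and 1 lower of 45 assembly factors, and 3 of 13 mt- genes lower. Of the mitochondrial ribosomal genes 15 of 78 were higher, and of the antioxidant and uncoupling genes 10 of 16. Of all genes 8.81% were higher and 4.68% lower. In edgeR 0 of 14 regulators passed, with 0 also at an unadjusted p under 0.05, beside 31.15% of all genes in either direction.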

How the data were processed

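Per the file headers the authors made the matrices with Cell Ranger 7.1.0, while the methods name an earlier version, on mm10 (GRCm38). Whether intron reads were counted is not given in the sources used here. The deposited values were raw UMI counts per gene and cell, with no normalization. Reads that fit several near-identical copies, such as processed pseudogenes, which many members have, could be lost in such counting. Gene positions came from GENCODE M21 and promoters from RefSeq (GRCm38.p6).

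Cells passed the filters and marker gates given above. A microglial cell needed at least 8 of 16 markers, T or NK cells 4, neutrophils, macrophages or monocytes, B cells and dendritic cells 3, with caps on the markers of other classes in place of a doublet caller, which was not run, and interferon cells at least 40 list UMIs per 10000. Of the DAM markers, 1 was not analysed here. Of microglia, 1160 (6.0%) lay within 10% of the DAM minimum and 1759 (9.2%) near the homeostatic maximum. Sets with at least 20 cells of a gate were summed and fitted over all genes in edgeR 4.0.16 (R 4.3.3) with TMM factors, filterByExpr, the quasi-likelihood test and Benjamini-Hochberg adjustment at 0.05. Log2 differences are TMM-scaled and so differ from ratios of CPM. Comparisons within sets had the set as a block. Sets 1 to 4 of both regions share numbers in the labels. In microglia same-numbered sets deviated together (r 0.148 to 0.553, 4 of 4 best with their own number), a possible pairing read from the data only. The labels do not state it, and the main comparisons of region had no block, with the set number as a block among the alternatives. A limit for a count of 0 is 3 UMIs per set as CPM, for counting error only. Counts were also simulated for the microglia comparison of regions (13000 genes) and for that of states (11794 genes). With 200 genes of over 20 CPM altered in each by 1 on the log2 scale, the fit recovered 100% of them, and 5.66% of its calls were false. The simulated spread was the same for every gene. Recovery of differences as small as those reported between regions, with the spread seen between these sets, was not tested.

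In each comparison the text names, of the members called, up to 10 per direction with the largest difference and at least 20 CPM, besides the Sdh genes, Cyc1, the isoform families and the highest and lowest member by level. Genes named beyond these were chosen after their values were seen. The members, lists and gates were chosen with earlier results of these data known. Alternatives were DESeq2 1.42.0, library size alone, no low-count filter, a mitochondrial limit of 5% or none, stricter gates (factor 2), k-means clusters (20), equal cells per set, the set block and leaving out each set.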

Additional observations from a re-analysis of the deposited data

Results flagged for a closer look

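In groups of 4 sets, the highest or lowest set lay far from the others in 41 of 345 groups checked (11.9%), where chance gives about 1 in 20. Highest and lowest below are among the 4 sets of the same region and gate only.

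In microglia of the thalamus set 1 was highest for the ATP synthase genes Atp5c1 (169.9 CPM), Atp5g3 (80.68 CPM) and Atp5d (161.8 CPM), the complex IV genes Cox5a (138.3 CPM), Cox5b (101.4 CPM) and Cox6b1 (138.9 CPM), Sdhb (121.4 CPM) and Ndufa1 (65.62 CPM). Set 1 also held the largest share of Malat1-poor microglia, 15.96%, whose part in these levels was not tested. In microglia of the HPC set 1 was highest for the mt- share (0.9874%) and the complex IV share (0.1955%), and for Atp5e (165.3 CPM), Atp5h (159.3 CPM), Atp5g2 (256.7 CPM), Cox6b1 (138.4 CPM), Cox6c (121.7 CPM), Cox8a (296.9 CPM), Ndufa5 (35.19 CPM) and Ndufb9 (133.4 CPM), and lowest for Ndufs3 (61.94 CPM). This set had 2014 DAM-gated and 51 homeostatic cells.

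In homeostatic cells set 1 was the highest of the thalamus sets for the mt- share (0.7217%), the complex IV share (0.1366%), Cox7a2 (77.38 CPM), Cox8a (174.1 CPM) and Ndufa1 (43.15 CPM), and HPC set 1 the highest of the HPC sets for Sdhd (35.65 CPM). In DAM-gated cells thalamus set 3 was highest for complex IV (0.2419%). HPC set 3, with 66 DAM-gated cells, was highest for Ndufb6 (40.33 CPM), Cox6b1 (195.4 CPM) and Sdhd (34.12 CPM) and lowest for Atp5mpl (58.94 CPM) and Cox6c (111.7 CPM).

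In T or NK cells the complex III share of HPC set 3 was the lowest of the HPC sets (0.1412%, 33 cells), and that of thalamus set 4 the highest of the thalamus sets (0.1438%). Sdhc was highest in HPC set 3 (81.44 CPM), Cox6b2 highest in HPC set 1 (1.123 CPM), Atp5e lowest in HPC set 2 (420.8 CPM) and Cox6b1 lowest in thalamus set 3 (201.4 CPM). In macrophages or monocytes of the thalamus set 3 was highest for complex IV (0.4177%) and Cox4i1 (1072 CPM), and set 1 was highest for Cox5b (249.2 CPM) and lowest for Cox7a2l (460.6 CPM).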

How the results depend on the processing

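In all microglia, 22 members were higher in the thalamus. The count was 39 with a mitochondrial limit of 5%, 42 with none, 14 without Malat1-poor cells, 2 with stricter gates and 46 with the set number as a replicate block. It was 12 (without HPC set 2) to 44 (without HPC set 1) with a set left out. In that order the share of all genes called, in either direction, was 19.43%, 20.5%, 9.48%, 2.39% and 28.97%. With a set left out it was 5.83% to 23.29%. The difference in summed member share, 0.0638 percentage points, was 0.1075 with the 5% limit, 0.1146 with none and 0.0183 without Malat1-poor cells (that of the mt- genes went from -0.043 to 0.0592 with the 5% limit, 0.0945 with none and 0.0161 without HPC set 1), the setting without Malat1-poor cells chosen after seeing the data.

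In homeostatic cells, 2 members were lower. The lower count was 0 with DESeq2 and with equal cells per set (51), 1 with either other mitochondrial limit, 6 without the low-count filter and with the replicate block, and 0 to 6 with a set left out. The higher count was 1 without the low-count filter and with the block, and 0 to 1 with a set left out. Of all genes, in either direction, DESeq2 called 1.71%, equal cells 0.712%, no low-count filter 3.21% and the block 5.54%. With a set left out the share was 2.42% to 4.57%. In DAM-gated cells, 20 were higher. The count was 9 with DESeq2, 12 with library size alone (1 lower), 32 with the 5% limit and 31 with none. It was 3 without Malat1-poor cells (1 lower), 0 with stricter gates (372 cells), 0 with equal cells and 21 with the replicate block. In that order the share of all genes called, in either direction, was 6.89%, 12.2%, 15.5%, 15.67%, 7.88%, 1.53%, 2.45% and 14.93%. With a set left out 4 to 21 members were higher, and the share was 3.96% to 12.74%. In T or NK cells 1 member was lower with DESeq2 and 5 with the block. The pairing by number was read from all microglia. In the smaller sums the same-numbered sets gave r of 0.0967 to 0.192 in DAM-gated (4 of 4 best with their own number), -0.000532 to 0.117 in homeostatic (3) and 0.0176 to 0.246 in T or NK cells (3).

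Between the states, 73 members were higher, 49 with stricter gates, 57 with equal cells, 66 without Malat1-poor cells and 74 with no replicate block. With library size alone 1 was lower. In that order the share of all genes called, in either direction, was 21.19%, 27.86%, 40.2%, 46.27% and 55.45%. In the interaction the higher count was 1 without the low-count filter, 2 with either other mitochondrial limit and 0 to 2 with a set left out. Those fits called 0.494% to 1.55% of all genes in either direction. Against microglia, 4 members were lower in T or NK cells, 2 with library size alone, 1 with stricter gates. With library size alone the median gene moved from -0.08 to 0.03 there and from -0.19 to -0.38 in macrophages or monocytes. In neutrophils 28 were higher, 13 with stricter gates (298 cells), and 38 with no replicate block, while 19 were lower, 11 with clusters in place of gates, 15 with no replicate block and 10 (without HPC set 1) to 20 (without HPC set 4) with a set left out. Of all genes, in either direction, the neutrophil fits called 52.5% with stricter gates, 68.3% with no replicate block and 59.3% with clusters. With a set left out they called 50.3% to 64.1%. In macrophages or monocytes 1 member was lower without the low-count filter and with clusters, and 0 to 1 with a set left out.

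The causes were not tested. No call of a named gene was reversed. Of the settings of named genes, calls held in 172 and were lost in 26 for microglia between regions, in 125 and 79 for DAM-gated cells, in 16 and 18 for homeostatic cells and in 314 and 9 between the states. Clusters could not be fitted for the 2 states or their difference, nor stricter gates for macrophages or monocytes. Depth limits the rare forms: Cox4i2, Cox7b2, Cox8b, Cox8c and Ndufa4l2 were too sparse to test.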

Other observations

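Interferon-gated microglia numbered 662 cells, with 27 to 219 per set. The members took 1.05% ± 0.10 of their UMIs in the thalamus (SD, n = 4, 0.925% to 1.18%) and 0.819% ± 0.137 in the HPC (0.685% to 0.986%), so the regions overlapped. Cox6a2 stood at 170.6, 63.9, 74.8 and 162.1 CPM in thalamus sets 1 to 4 and at 24.7, 6.02, 16.7 and 47.7 CPM in HPC sets 1 to 4, above the DAM-gated cells of the same set in 4 sets and below them in 4. As a share of both subunit 6A genes Cox6a2 made up 49.4%, 26.1%, 37.3% and 52.0% in thalamus sets 1 to 4 and 15.1%, 5.56%, 13.3% and 30.8% in HPC sets 1 to 4. The values of HPC sets 2 and 3 rest on 1 and 2 UMIs of Cox6a2. Thalamus set 3, counted as below, stood at 74.8 beside 75.6 CPM in its DAM-gated cells. These cells were not compared by a test, and their median DAM level was 248 to 825 list UMIs per 10000 in the thalamus and 127 to 425 in the HPC.

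Lymphoid and dendritic cells found in few sets lay above microglia as well. B cells of HPC set 1, the only set with at least 20 of them, had a member share of 1.21%, and dendritic cells of thalamus set 1 and HPC set 1 had 1.25% and 1.35%. With so few sets no comparison was made.

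Among genes outside the chain, the 2 subunits of the mitochondrial pyruvate carrier had a gap between the DAM-gated and homeostatic states that was wider in thalamus sets, Mpc1 by 0.56 (edgeR adjusted p = 0.00947) and Mpc2 by 0.54 (adjusted p = 0.0491), and so had the uncoupling protein gene Ucp2, by 0.64 (adjusted p = 0.00301). In neutrophils the glycerol phosphate shuttle gene Gpd2 was higher than in microglia by 3.09, Mdh2 by 1.98 and the copper chaperone Cox17 by 1.90. More genes of their lists were lower than higher. Of 10 electron carriers and feeders 1 was higher and 6 lower. The tricarboxylic acid cycle and pyruvate entry list had 2 higher and 12 lower of 21, the assembly factors 6 and 23 of 45. Of all genes 21.8% were higher and 42.2% lower. Of 96 cytosolic ribosomal genes 64 were lower. In all microglia the dissociation response list had 8 of 19 genes higher in the thalamus and 0 lower, among them Klf2 (2.04), Dusp1 (1.21) and Atf3 (1.17).

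Microglia removed by the mitochondrial filter differed from those kept. In the range from 2% to 5% mitochondrial counts the members took 1.35% to 1.41% of UMIs in thalamus sets, against 0.851% to 0.970% in HPC sets, above the kept microglia of every set.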
